A study of Mus musculus with 6 samples.

Results

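Mitochondrial quality-control proteases are the enzymes that degrade damaged, unassembled or misfolded proteins inside mitochondria and that cut imported precursors and signalling proteins at set sites. They were followed here as a set of 10 genes listed by symbol: Lonp1, Clpp, Clpx, Afg3l2, Spg7, Yme1l1, Htra2, Oma1, Parl and Pmpcb. A gene was taken from a probe set that the platform annotation assigns to it alone, and of several such probe sets the brightest, by its mean over the 6 arrays, was used. This left 9 of the 10 genes, among 18820 genes so named in all. Htra2, a serine protease of the intermembrane space, lies on 2 probe sets that also name another gene, and is not analysed here. All 9 genes passed the filter on dim genes, a mean log2 level above 3.87, and were tested among 11292 genes.

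The arrays measured C2C12 cells, an immortalized mouse myoblast line, made to fuse into myotubes in medium with 2% horse serum. The silenced cells (3 arrays) had received a locked nucleic acid (LNA) that blocks miR-382-5p, and the control cells (3 arrays) a negative control oligonucleotide. Both were transfected on day 6 of differentiation at a final concentration of 50 nM and harvested 24 h later, on day 7. Both groups carry the replicate numbers 1, 2 and 3. The labels do not say what a number stands for, nor whether the samples were separate cultures, so every p-value below refers to the spread among these 6 samples, part of which may be technical. The series title names the mitochondrial unfolded protein response, in which several of these proteases are known to take part, as the question.

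Inhibitors of this kind bind the mature microRNA, whose sequence is shown because it is the agent's target and its seed, bases 2 to 8, is the part that pairs with messenger RNAs. The sequence is RefSeq's, from chromosome 12 of GRCm38.p6, bases 109733781 to 109733802 on the plus strand, and the seed is in capitals.
mmu-miR-382-5p: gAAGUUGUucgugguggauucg
Matches of the seed to the protease messenger RNAs were not searched, and the level of the mature microRNA was not measured by these arrays.

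The proteases divide the organelle among them. In the matrix, LONP1 is an ATP-driven serine protease that removes oxidized and misfolded proteins, and CLPP is a serine protease chamber fed by the ATP-driven unfoldase CLPX. In the inner membrane, AFG3L2 and SPG7 (paraplegin) form the m-AAA protease, which faces the matrix, and YME1L1 forms the i-AAA protease, which faces the intermembrane space. OMA1 is an inner membrane metalloprotease activated by stress that cuts OPA1, a fusion protein. PARL is a rhomboid protease that cuts within the membrane, with PINK1 and PGAM5 among its substrates, and PMPCB is the catalytic subunit of the peptidase that removes targeting sequences from imported precursors.

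The values are log2 expression levels as deposited, and levels are compared within a gene only. Over the tested genes the arrays correlated pairwise between 0.985 and 0.995. Of the marker genes of myotubes all 7 were tested, and their mean log2 level was 11.3 to 11.5 in silenced arrays and 11.2 to 11.3 in control arrays. This mean over the list was higher on each of the 3 silenced arrays than on any control array. By gene, the silenced values lay wholly above the control values in 4 of the 7, and overlapped in Acta1, Ckm and Tnnt3. Silenced values lay wholly above in 784 of all 11292 tested genes, and values did not overlap, in either direction, in 11.8%. By the limma test described below, 0 of the 7 had an adjusted p under 0.05 (0.871 for each of the 4). An unadjusted p under 0.05 was seen in 3 of the 7, against 4.8% of all tested genes. Markers of undifferentiated myoblasts were also present, 5 of 6 listed being tested, at 7.69 to 8.01 in silenced arrays and 7.77 to 7.93 in control arrays. Of the fibroblast markers 4 of 5 were tested. Of the 3 adipocyte markers with a probe set 0 passed the filter, and of the 5 osteoblast and chondrocyte markers 1 passed, at a level near the filter. In such bulk samples, fewer cells of a type and less RNA per cell cannot be told apart.

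No protease gene passed the test between silenced and control arrays, and most differences were small. In silenced arrays 6 of the 9 genes had a higher mean and 3 a lower one, and their median difference was 0.023 log2, against 0.0089 over all tested genes. The differences ran from -0.14 for Yme1l1 to 0.13 for Spg7. By limma's moderated test with Benjamini-Hochberg adjustment over all tested genes, 0 of the 9 had an adjusted p under 0.05 (lowest 0.871), as had 0 of all 11292 genes (0%, with 0.487 the smallest). Without adjustment, 0 of the 9 protease genes and 542 of all tested genes (4.8%) had a p under 0.05, a count over all genes that was 272 without control replicate 3 and 828 without control replicate 1. In 0 of the 9 did the 3 silenced values fall wholly to one side of the 3 control values, as they did in 11.8% of all tested genes.

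**Figure D1:**
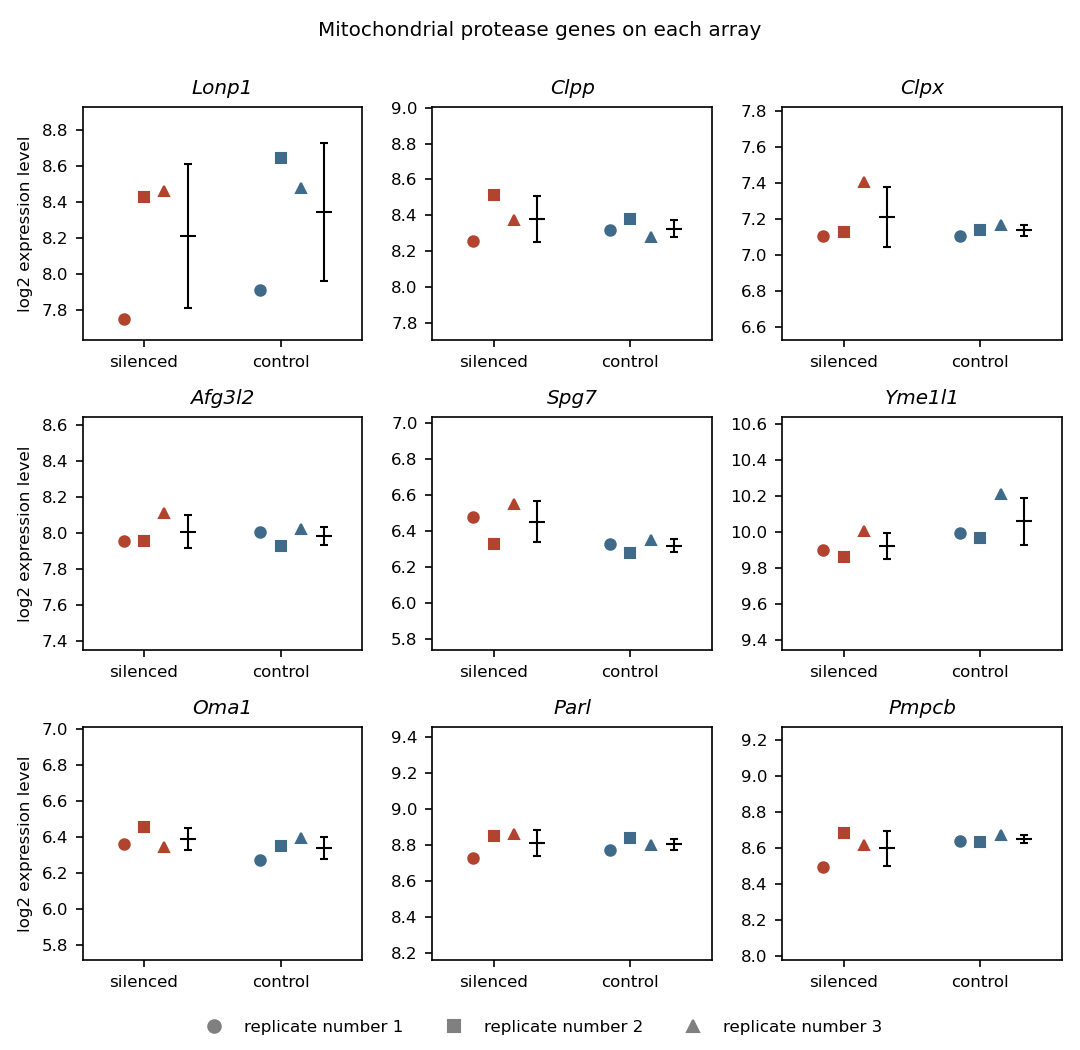
Log2 expression level (vertical axes, each spanning the same number of log2 units) of the 9 protease genes on each of the 3 silenced and 3 control arrays. Symbols mark the replicate number, and the bar beside each group is its mean ± SD. In Lonp1 both arrays numbered 1 sit below the other 4, and the groups overlap in every gene.

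Lonp1 read 7.75, 8.43 and 8.46 in silenced replicates 1, 2 and 3, against 7.91, 8.65 and 8.48 in control replicates 1, 2 and 3. Both arrays numbered 1 were low and the other 4 were high, so the groups overlapped. The mean was 8.21 ± 0.40 in silenced arrays and 8.35 ± 0.39 in control arrays (SD, n = 3 each), a difference of -0.13 (95% confidence interval -0.71 to 0.45). When the replicate number was a block, the interval of the same difference was -0.32 to 0.057, and the adjusted p from limma was 0.556. Silenced was the lower array within each replicate number, the differences being -0.16, -0.22 and -0.016 log2 for numbers 1, 2 and 3.

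Clpp, the other matrix serine protease, read 8.26, 8.51 and 8.37 in silenced replicates 1 to 3, against 8.32, 8.38 and 8.28 in control replicates 1 to 3. The lowest and the highest value both belonged to silenced arrays. The difference was 0.055 (95% confidence interval -0.16 to 0.27). Clpx, whose product unfolds the substrates of CLPP, read 7.10, 7.12 and 7.40 in silenced replicates 1 to 3, against 7.11, 7.14 and 7.16 in control replicates 1 to 3. Silenced replicate 3 stood above the other 5 arrays, which lay within a narrow band. The difference of 0.075 (-0.16 to 0.31) turned to -0.022 without that array.

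Among the membrane-bound ATP-driven proteases, the m-AAA subunit Afg3l2 read 7.96, 7.95 and 8.11 in silenced replicates 1 to 3, against 8.00, 7.93 and 8.02 in control replicates 1 to 3. The values interleaved, and the difference was 0.023 (95% confidence interval -0.17 to 0.22). Spg7, the partner subunit, read 6.48, 6.33 and 6.55 in silenced replicates 1 to 3, against 6.33, 6.28 and 6.35 in control replicates 1 to 3. It was higher in the silenced array within each replicate number, by 0.15, 0.047 and 0.20 log2, but silenced replicate 2 fell just below control replicates 1 and 3. The difference was 0.13 (-0.071 to 0.34; limma, unadjusted p = 0.168, adjusted p = 0.871).

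Yme1l1, the i-AAA protease, read 9.90, 9.86 and 10.00 in silenced replicates 1 to 3, against 10.00, 9.97 and 10.21 in control replicates 1 to 3. It was lower in the silenced array within each replicate number, with differences of -0.095, -0.11 and -0.21 log2, while silenced replicate 3 overlapped the control values. The difference was -0.14 (95% confidence interval -0.36 to 0.087; limma, unadjusted p = 0.192, adjusted p = 0.871). Lonp1, Spg7 and Yme1l1 were thus 3 of 9 genes with the same direction in all 3 same-numbered pairs, against 35.6% of all tested genes. Blocking on the replicate number gave a limma adjusted p of 0.556 for Lonp1, 0.544 for Spg7 and 0.533 for Yme1l1, and 0 of the 9 genes had an unadjusted p under 0.05, against 10.3% of all tested genes.

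Oma1 read 6.36, 6.46 and 6.34 in silenced replicates 1 to 3, against 6.27, 6.35 and 6.39 in control replicates 1 to 3. The difference was 0.049 (95% confidence interval -0.14 to 0.23). The groups overlapped in part: silenced replicate 2 lay above all control values and control replicate 1 below all silenced values. Parl read 8.73, 8.85 and 8.86 in silenced replicates 1 to 3, against 8.77, 8.84 and 8.80 in control replicates 1 to 3, with a difference of 0.0079 (-0.18 to 0.19). Its range over the 6 arrays, 0.13 log2, was the narrowest of the 9 genes. Parl has a second probe set of its own, with a lower mean, whose difference was 0.042 and which correlated with the one used at 0.744 over the 6 arrays. Pmpcb read 8.49, 8.69 and 8.62 in silenced replicates 1 to 3, against 8.64, 8.63 and 8.68 in control replicates 1 to 3. Silenced replicate 1 was the lowest and silenced replicate 2 the highest of the 6 arrays, and the difference was -0.049 (-0.24 to 0.14).

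**Figure D2:**
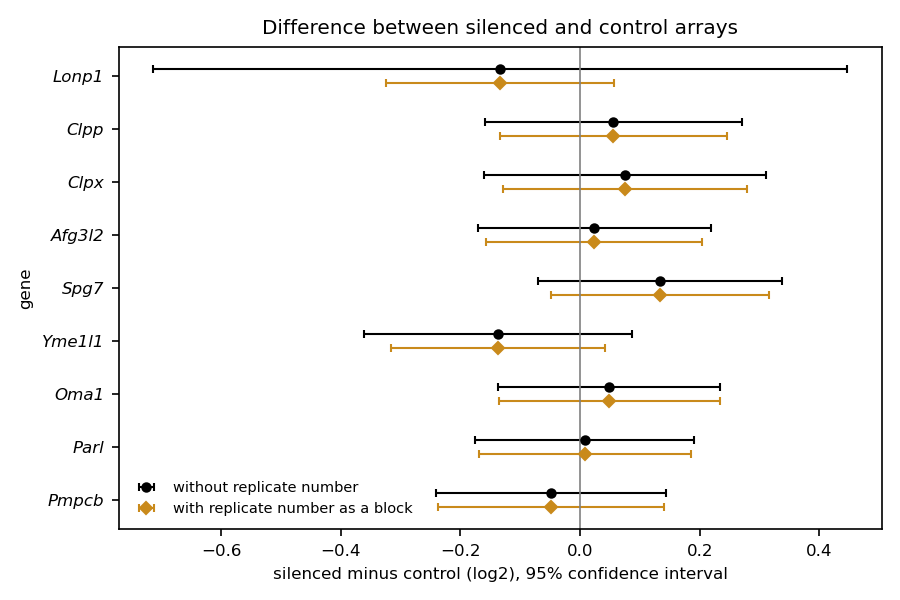
Difference between silenced and control arrays (log2, horizontal axis) for each protease gene, with 95% confidence intervals from limma without (circles) and with (diamonds) the replicate number as a block, n = 3 arrays per group. All intervals hold 0, and the interval of Lonp1 narrows from -0.71 to 0.45 without the block to -0.32 to 0.057 with it.

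These intervals bound what the comparison allows. Without a block, the 8 genes other than Lonp1 had intervals within -0.36 and 0.34 log2, and with the block all 9 lay within -0.32 and 0.32. Intervals of this width do not show that silenced and control cells had equal levels. RMA, which the authors used, compresses differences of dim genes toward 0. The means of the 9 genes over the 6 arrays ran from 6.36 for Oma1 to 9.99 for Yme1l1, above the filter at 3.87. How far RMA compressed their differences was not tested.

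Between replicate numbers, Lonp1 passed the test. Lonp1 averaged 7.83 over the 2 arrays numbered 1, 8.54 over those numbered 2 and 8.47 over those numbered 3. The difference of number 1 from number 2 was -0.71 ± 0.10 log2 (SE), a level 1.63-fold lower (95% confidence interval 1.39 to 1.92). That of number 1 from number 3 was -0.64 ± 0.10 (SE), a level 1.56-fold lower (1.32 to 1.83). The moderated F test of limma for the replicate number, with group in the fit, gave an adjusted p of 0.0293 for Lonp1, and the adjusted p was 0.0202 for number 1 against 2 and 0.0250 for number 1 against 3. Numbers 2 and 3 differed by 0.068 (-0.17 to 0.30; limma, adjusted p = 0.931). The F test called 1 of the 9 protease genes and 3.12% of all tested genes, and at an unadjusted p under 0.05 these were 1 of the 9 and 20.4%. As lower in number 1, limma called 1 of the 9 and 1.97% of all tested genes against number 2, and 1 of the 9 and 2.28% against number 3. Between numbers 2 and 3 it called 0 of the 9 genes and 0% of all tested genes, and 0 of the 9 and 7.78% of all had an unadjusted p under 0.05.

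The call on Lonp1 did not hold under every setting. Both of its differences from number 1 stayed between -0.77 and -0.55 log2 in all 12 alternatives, but many of these could not change them. The filters, the intensity trend and the fit without group leave the differences as they are, as does the mean of a gene's rows, since Lonp1 has 1 row. Only repeated quantile normalization and the leaving out of an array of a compared number could change them. The adjusted p of the F test from limma was 0.0768 when dim genes were tested too. It was 0.142 without silenced replicate 3, 0.124 without control replicate 3 and 0.0503 without control replicate 2, and between 0.000414 and 0.142 over the 12 alternatives. Of the variance of Lonp1 over the 6 arrays, 94.1% lay between replicate numbers, 4.13% between silenced and control and 1.73% in the remainder. A share between replicate numbers at least as large was seen in 4.68% of all tested genes. Its range over the 6 arrays, 0.90 log2, compares with a median of 0.37 over all tested genes and with 0.13 to 0.35 in the 8 other protease genes.

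**Figure D3:**
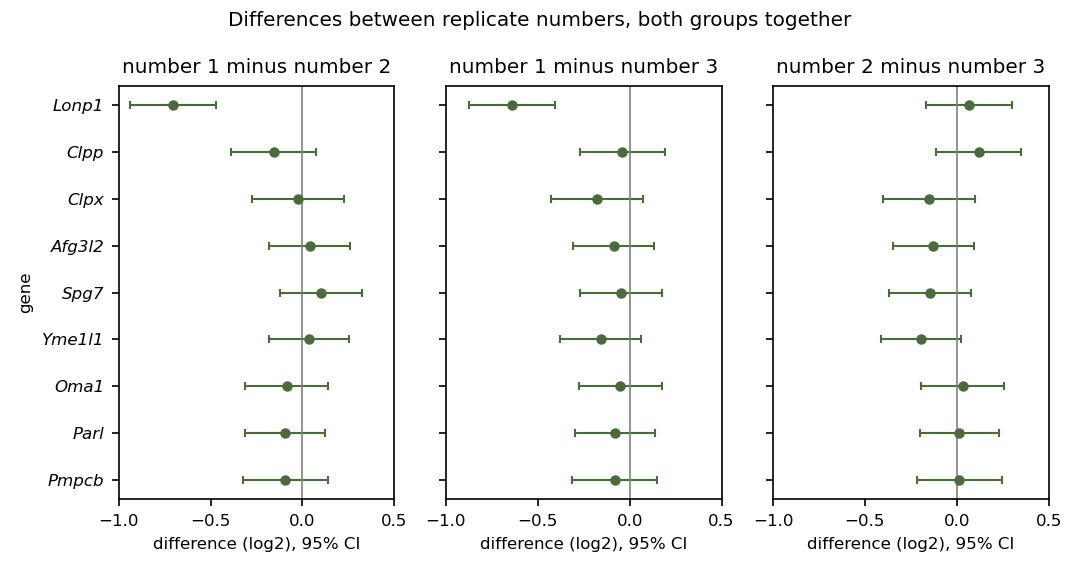
Differences between replicate numbers (log2, horizontal axes) for each protease gene, averaged over the silenced and control arrays of a number, with limma's 95% confidence intervals. Lonp1 lies at -0.71 and -0.64 for number 1 against numbers 2 and 3 with intervals clear of 0, while the other 8 genes lie between -0.19 and 0.12 in all 3 panels with intervals that hold 0.

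The other 8 protease genes did not pass the replicate-number test, with adjusted p between 0.410 and 0.837 (limma, F test) and differences between numbers of -0.19 to 0.12 log2. The farthest of their interval limits was -0.43 log2, for Clpx in number 1 against number 3, so smaller differences than that of Lonp1 may be present in them. Whether Lonp1 differed from the others in this respect was not tested. Clpx and Parl also had both arrays numbered 1 below the other 4, by small margins, which with Lonp1 makes 3 of 9 genes, against 15.3% of all tested genes. For Clpx the difference of number 1 from number 3 was -0.18 (-0.43 to 0.071) and for Parl it was -0.080 (-0.30 to 0.14). Yme1l1 was highest in number 3, with a difference of number 2 from number 3 of -0.19 (-0.41 to 0.025). Clpp was highest in number 2, at -0.16 (-0.39 to 0.075) for number 1 against 2, and the ATPase that serves it, Clpx, was highest in number 3.

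Within the m-AAA protease, Afg3l2 and Spg7 were both lowest in number 2 and highest in number 3, with differences of number 2 from number 3 of -0.13 (-0.35 to 0.094) for Afg3l2 and -0.15 (-0.37 to 0.076) for Spg7. Over the 9 genes the median share of variance between replicate numbers was 57.0%, against 49.6% over all tested genes, and the median share between silenced and control was 12.7%, against 14.2%. Spg7 was the 1 gene of the 9 with a larger share between silenced and control (47.8%) than between replicate numbers (41.1%). In Yme1l1 the shares were 38.0% and 57.0%. In a layout of 6 arrays these shares rest on 1 degree of freedom for the groups and 2 for the numbers, and describe these arrays.

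**Figure D4:**
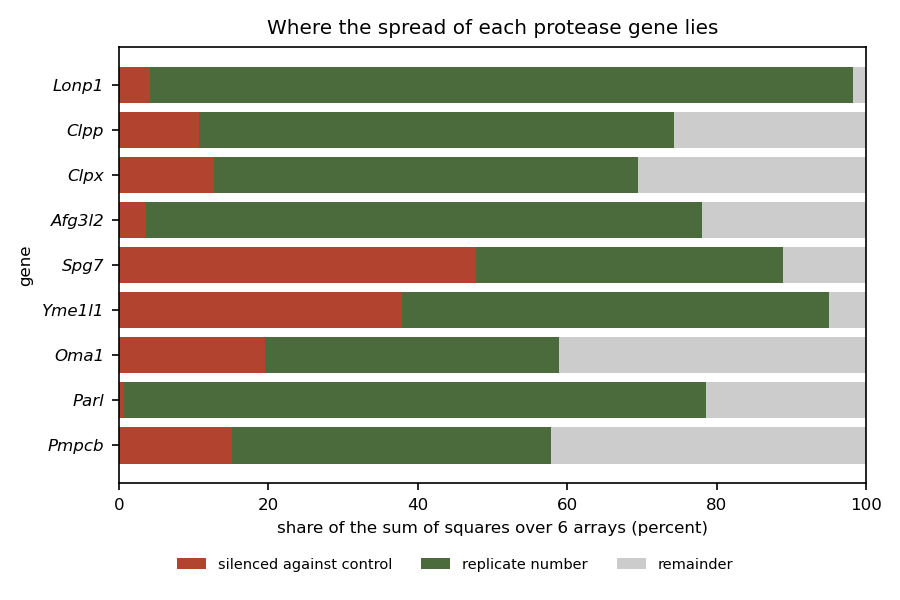
Share of each protease gene's sum of squares over the 6 arrays (percent, horizontal axis) that lies between silenced and control, between replicate numbers and in the remainder. Replicate number holds 94.1% in Lonp1 and 39.4% to 77.8% in the other 8 genes, and Spg7 has the largest share between silenced and control, 47.8%.

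Other genes moved with the replicate number beside Lonp1. The 5 fibroblast markers, with Thy1 included although it lay below the filter, averaged 8.34 over the arrays numbered 1, against 8.57 and 8.62 for numbers 2 and 3. Of the 4 tested, 1 passed the F test, the matrix proteoglycan gene Dcn. Its difference of number 1 from number 3 was -0.66 ± 0.09 (SE; limma, adjusted p = 0.0226). The mature muscle genes Myh4, a fast myosin heavy chain, and Mb, myoglobin, also passed and were lower in number 1 than in number 3, with differences of -0.65 ± 0.10 and -0.68 ± 0.09 (SE). Their differences of number 1 from number 2 were -0.062 and -0.13 (limma, adjusted p = 0.766 and 0.477), and those of number 2 from number 3 were -0.59 and -0.54 (limma, adjusted p = 0.289 and 0.297). Myh2, the remaining gene of that list, did not pass (limma, F test, adjusted p = 0.529). The proliferation marker Mki67, which did not pass the F test (limma, adjusted p = 0.0551), was higher in number 1 than in number 3, by 0.61 ± 0.10 (SE; limma, adjusted p = 0.0280). In the list of undifferentiated myoblast markers that holds Mki67, the same difference was 0.72 log2 for Cdk1 (limma, adjusted p = 0.0581) and -0.11, -0.13 and -0.00023 for Pax7, Myf5 and Myod1. That list averaged 7.95, 7.92 and 7.73 for numbers 1, 2 and 3, and myotube markers averaged 11.3 for each. The part of these in the difference of Lonp1 was not tested.

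The 5 tested genes whose pattern over the 6 arrays was most like that of Lonp1, by Pearson's correlation, were Cebpg (0.9996), Ch25h (0.997), Ero1a (0.996), Spon2 (0.996) and Eif4ebp1 (0.994). They were picked as the closest among all tested genes, so their correlations are a description of these 6 arrays, over which 94.1% of the variance of Lonp1 lay between replicate numbers. Cebpg, which encodes a basic leucine zipper transcription factor, read 7.02, 7.77 and 7.82 in silenced replicates 1 to 3, against 7.22, 8.02 and 7.84 in control replicates 1 to 3. Its 6 values follow the order of those of Lonp1. Ero1a encodes an oxidase of the endoplasmic reticulum and Eif4ebp1 an inhibitor of cap-dependent translation, and their differences of number 1 from number 2 were -1.12 and -0.81 log2. Ch25h, cholesterol 25-hydroxylase, and Spon2, a secreted matrix protein, had differences of -1.14 and -1.22 log2.

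**Figure D5:**
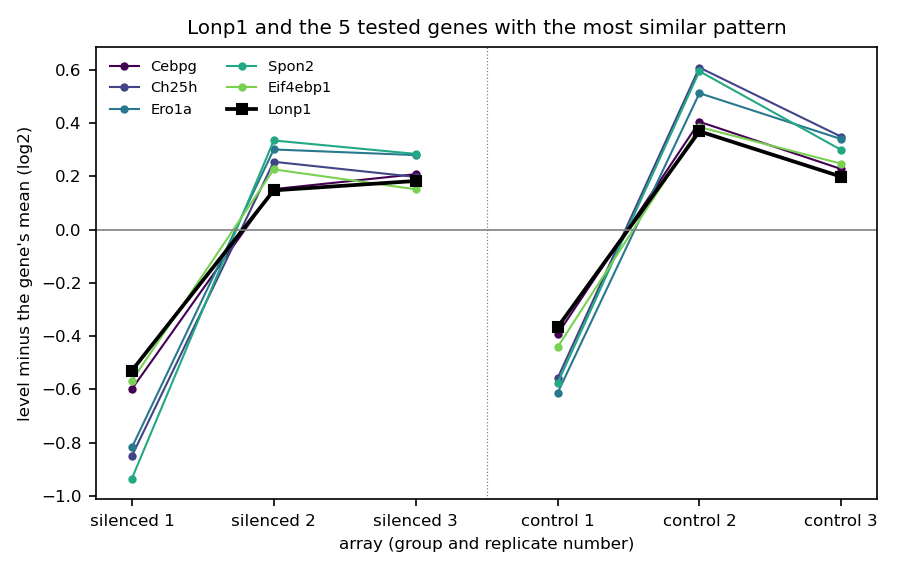
Level minus the gene's own mean over 6 arrays (log2, vertical axis) for Lonp1 (black squares) and the 5 tested genes of highest correlation with it, on silenced arrays 1 to 3 (left) and control arrays 1 to 3 (right). All 6 genes are low on both arrays numbered 1, and Lonp1 and Cebpg, with a correlation of 0.9996, follow each other closely.

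The promoter of Lonp1 is shown because it is the protease gene whose level differed between replicate numbers. RefSeq's window of 300 bases, from 250 before the transcript's start to 50 after it, lies on the minus strand of GRCm38.p6 at chr17:56626854-56627153 and is written along the direction of transcription. The capitals mark the match described next.
Lonp1 promoter: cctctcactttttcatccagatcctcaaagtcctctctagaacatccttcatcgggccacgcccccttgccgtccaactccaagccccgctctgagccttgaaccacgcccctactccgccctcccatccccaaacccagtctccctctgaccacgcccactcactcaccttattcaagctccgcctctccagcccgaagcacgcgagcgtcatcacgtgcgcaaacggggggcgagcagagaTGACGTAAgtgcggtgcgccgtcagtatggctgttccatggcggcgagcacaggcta
The ATF4-type motif TGATGNAA, searched on both strands, was found in 0 of the windows of 8 protease genes (all but Afg3l2 and Htra2), and in 3.97% of all 32851 windows of this length. The motif TGACGTNA, of the type bound by ATF and CREB factors and chosen after the Lonp1 window had been read, was found in 1 of the 8 windows, that of Lonp1, and in 2.93% of all windows. The match, TGACGTAA, begins 7 bases before the start of the transcript, at bases 56626903 to 56626910 of chromosome 17. Because the choice of TGACGTNA followed the reading of that window, its 1 of 8 cannot be weighed against the 2.93%. A match of letters is not evidence of binding. The 8 windows held 52.3% to 65.7% G and C and 11 to 36 CpG pairs, against medians of 52.7% and 7 over all windows.

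Lonp1 and Clpp are both on chromosome 17 of GRCm38.p6, Lonp1 from 56614297 to 56626903 on the minus strand and Clpp from 56990264 to 56996371 on the plus strand. Over the 6 arrays Lonp1 had a range of 0.90 log2 and Clpp one of 0.26.

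Other genes of mitochondrial proteolysis gave no call either. A broad list of 10 further genes, headed processing peptidases, held Pmpca, Mipep, Xpnpep3, Immp1l, Immp2l, Pitrm1, Nln, Metap1d and the complex III genes Uqcrc1 and Uqcrc2. Of these, 8 were tested and 0 passed limma's adjusted threshold in either direction (0 at an unadjusted p under 0.05). Their median difference between silenced and control was 0.014 log2. Immp1l, a subunit of the inner membrane peptidase, had the smallest p and read 6.47, 6.49 and 6.52 in silenced replicates 1 to 3, against 6.60, 6.65 and 6.72 in control replicates 1 to 3. The difference was -0.16 ± 0.08 (SE; limma, adjusted p = 0.871). These values, from the brighter of the gene's 2 probe sets, did not overlap, which held for 1 of the 8 tested genes of this list and for 11.8% of all tested genes. Values of its other probe set are not given here. Pitrm1, which degrades cut targeting sequences, differed by 0.093 ± 0.083 (SE). Of 5 other proteases and peptidases, 5 were tested and 0 passed limma (0 unadjusted), with a median of 0.024. Usp30, a deubiquitinase of the outer membrane, differed by -0.087 ± 0.119 (SE), and Afg3l1, the mouse paralogue of the m-AAA subunits, by 0.050 ± 0.081 (SE).

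Of 10 AAA and chaperone partners, 10 were tested and 0 passed limma in either direction (0 unadjusted), with lower means in silenced arrays for 8 genes, higher means for 2 and a median difference of -0.049. Grpel1, the nucleotide exchange factor of the matrix chaperone HSPA9, read 7.77, 7.89 and 7.84 in silenced replicates 1 to 3, against 8.08, 7.93 and 8.06 in control replicates 1 to 3. The difference was -0.19 ± 0.08 (SE; limma, adjusted p = 0.871). The groups did not overlap, which held for 1 of the 10 tested genes of this list and for 11.8% of all tested genes. Bcs1l, an AAA protein that assembles complex III, differed by 0.13 ± 0.10 (SE). Of 17 scaffolds, regulators and substrates of these proteases, 16 were tested and 0 passed limma, with 8 higher, 8 lower and a median of 0.0086. At an unadjusted p under 0.05 there was 1 of the 16, against 4.8% of all tested genes. Alas1, the first enzyme of haem synthesis, whose activation is a known task of CLPX, read 8.49, 8.21 and 8.34 in silenced replicates 1 to 3, against 8.13, 8.00 and 8.09 in control replicates 1 to 3. The 3 silenced values lay above the 3 control values, and the difference was 0.27 ± 0.10 (SE; limma, unadjusted p = 0.0252, adjusted p = 0.871). In this list 1 gene, Alas1, lay wholly above and 1, Xiap, wholly below, against 11.8% of all tested genes in either direction. Maip1, which guides EMRE past the m-AAA protease, differed by -0.22 ± 0.11 (SE; limma, adjusted p = 0.871).

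By replicate number, 0 of the 39 tested genes of these lists passed the F test of limma, and 6 of them had an unadjusted p under 0.05, against 20.4% of all tested genes. Nearest to it, and named after their values were seen, were the cochaperone Dnaja3 (adjusted p = 0.0780), the OMA1 and AFG3L2 regulator Ghitm (adjusted p = 0.0855) and the matrix chaperone Hspa9 (adjusted p = 0.0943). Their differences of number 1 from number 2 were -0.46 ± 0.09, -0.47 ± 0.10 and -0.44 ± 0.09 log2 (SE), the same direction as for Lonp1. The 6 also held Phb, the chaperonin gene Hspe1 and Pgam5, named after their values were seen too. These went the opposite way, with number 1 above number 2 by 0.36, 0.31 and 0.33 log2 (limma, F test, adjusted p = 0.175, 0.211 and 0.243). The chaperonin gene Hspd1, not among the 6 and also named after its values were seen, was higher in number 1 by 0.23 log2 (limma, F test, adjusted p = 0.284). Phb, Hspe1 and Hspd1 each have 2 probe sets of their own. Their values are from the brighter, and those of the other are not given here.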

How the data were processed

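Per the labels' protocols, 100 ng of total RNA from each of 6 samples was labelled for Affymetrix whole-transcript arrays of 1 colour. The authors deposited log2 expression values for 35556 probe sets. RMA was used, per the submitters' processing notes, and its version is not given in the sources used here. The number of arrays limits the precision. In the platform annotation 21218 probe sets name 1 gene, 1881 name several and 12457 are not listed. The brightest row per gene was kept (18820 genes), and the 11292 genes with a mean above the 40th percentile were tested.

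Limma 3.58.1 (R 4.3.3; lmFit, eBayes, 2-sided) was fitted to silenced minus control without a covariate. Replicate numbers were tested with its moderated F test and 3 contrasts, with group in the fit. All p-values were adjusted over all tested genes (Benjamini-Hochberg, threshold 0.05). Both fits were tested on simulated data with independent noise, of the spread left after group and replicate number. The simulation for silenced minus control held no differences between replicate numbers. It therefore does not show how that fit performs where the numbers differ, as in Lonp1. Same-numbered arrays deviated together from their group means (correlations of 0.55, 0.35 and 0.42). The main fit of silenced minus control nevertheless left the arrays unpaired. The numbers served as a block in an alternative fit only, a pairing that no label states. Alternatives were the replicate block, no filter on dim genes, a filter at the 60th percentile, repeated quantile normalization, an intensity trend in eBayes, the mean of a gene's rows, and arrays left out. The members, gene lists and tests were chosen with earlier results of these data known. Outside the members, the text names the 2 genes of smallest p per list, the 5 genes most like the member of smallest replicate-number p, markers, and genes said to be chosen after their values were seen. Sequences are from RefSeq tables of GRCm38.p6.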

Additional observations from a re-analysis of the deposited data

How the results depend on the processing

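Over 15 alternatives and 9 protease genes (135 recomputed differences between silenced and control), 0 were called by limma, with a smallest adjusted p of 0.533, and 14 changed direction. Not all of the 135 could change. The replicate block, the filters and the intensity trend leave each difference as it is, and the mean of a gene's rows altered only Parl. The 14 came from repeated quantile normalization and from arrays left out. The count of genes called between silenced and control was 0 in all 15, the replicate block included. At an unadjusted p under 0.05, the count of 542 became 1168 with the replicate block, 834 with no filter, 272 to 828 with 1 array left out, and 1160, 281 and 192 without both arrays numbered 1, 2 and 3. Parl was -0.014 after repeated quantile normalization. Without both arrays numbered 3, Clpx was -0.0071, Afg3l2 -0.011 and Parl -0.018. With 1 array left out in turn the differences ranged from -0.35 to 0.098 for Lonp1, -0.092 to 0.0041 for Pmpcb, -0.011 to 0.12 for Clpp, -0.016 to 0.051 for Parl, -0.022 to 0.13 for Clpx and -0.029 to 0.050 for Afg3l2. The other 3 genes kept their sign, at 0.014 to 0.077 for Oma1, -0.18 to -0.061 for Yme1l1 and 0.084 to 0.20 for Spg7. Lonp1 was above 0 without silenced replicate 1 (0.098) or control replicate 2 (0.018). The cause was not tested.

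Genes called for replicate number, 352, were 58 with no filter, 847 at the 60th percentile and 1090 with an intensity trend, and 17 to 1070 with 1 array left out. For number 1 against 2, 311 became 129, 817 and 1015 under the same settings, and 69 to 1036. For number 1 against 3, 505 became 99, 816 and 1090, and 0 to 1007, the count being 0 without either array numbered 3. For number 2 against 3, 0 became 1 with group left out of the fit, 5 at the 60th percentile and 18 with a trend, and 0 to 98. Lonp1's difference of number 1 from number 2 was no longer called with no filter or when any 1 of the 4 arrays numbered 2 or 3 was left out, and that of number 1 from number 3 with no filter or without either array numbered 3. Between numbers, the ranges that cross 0 with 1 array left out were: number 1 against 2, Clpx -0.091 to 0.039 and Afg3l2 -0.014 to 0.094; number 1 against 3, Clpp -0.13 to 0.049, Spg7 -0.096 to 0.0050 and Oma1 -0.13 to 0.024; number 2 against 3, Oma1 -0.041 to 0.11, Pmpcb -0.065 to 0.090, Lonp1 -0.020 to 0.16 and Parl -0.025 to 0.052. Parl's was -0.0013 with the mean of its rows. With 5 arrays the lone array of a number is assumed to vary like the others.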
